A study of Mus musculus with 6 samples.

Results

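Genes that mark naive, resting T cells were followed after prostaglandin E2 (PGE2) in mouse regulatory T cells induced in culture (iTreg). They are Tcf7, Lef1, Satb1, Bach2, Foxo1, Klf2, Klf3 and Igfbp4, chosen by name, and all 8 were found once each among 47643 annotated gene IDs. CD4+ T cells from the spleen of C57BL/6 mice with the Foxp3-DTR/EGFP allele were held under plate-bound anti-CD3, soluble anti-CD28 and TGF-β for 2 days. The 3 PGE2 libraries come from cells then given 100 nM PGE2 for 6 h, and the 3 vehicle libraries from cells given DMSO for 6 h. Every library carries the Foxp3-DTR/EGFP allele, which makes Foxp3+ cells fluorescent, and all cells were sorted as Foxp3+ on that fluorescence. The labels give neither the age of the mice nor the origin of the replicates (separate mice, separate cultures or neither), so every p-value reflects the spread among these libraries alone, which may be technical.

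Naive T cells stay small and undivided through a set of transcription factors that hold growth and effector genes in check and keep the receptors for lymph node entry expressed. TCF-1 (from Tcf7) and LEF-1 bind DNA through an HMG box and act with β-catenin or with corepressors of the TLE family. FOXO1 is a forkhead factor that AKT keeps out of the nucleus once antigen and growth signals arrive, and Klf2, Il7r and Ccr7 are known targets of it. Signals through the antigen receptor and CD28 lower many of these transcripts, and regulatory T cells keep some of them. PGE2 reaches T cells mainly through the receptors EP2 and EP4, which raise cAMP and so activate protein kinase A and CREB. The comparison of PGE2 with vehicle asks which transcripts of Foxp3+ iTreg differ after PGE2, which the series title ties to EP2/EP4 signalling and the regulatory T cells of tumours.

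The sorted cells carried the transcripts of their label. Levels are in FPKM, fragments per kilobase of a transcript, normalized to the size of the library. Foxp3 stood at 136, 119 and 91.1 FPKM with PGE2 and at 99.4, 101 and 75.4 FPKM with vehicle, with overlap, and did not pass the test described below (unadjusted p = 0.11 with limma). Cd4 ranged from 157 to 190 FPKM over the 6 libraries. The 6 Treg markers summed to 1810 to 1860 FPKM with PGE2 and 1380 to 1470 with vehicle, and the 6 T cell markers to 1030 to 1100 FPKM with PGE2 and 997 to 1020 with vehicle, both without overlap (exact permutation p = 0.1 each, two-sided, the smallest these groups allow). Among the Treg markers Ctla4, an inhibitory receptor, was at 339, 351 and 346 FPKM with PGE2 and at 205, 201 and 191 FPKM with vehicle. Tnfrsf18 did not overlap either, at 678, 688 and 756 FPKM with PGE2 and 493, 378 and 365 with vehicle. Il2ra, Ikzf2 and Ikzf4 overlapped, as Foxp3 did, and Il2ra and Ikzf4 had lower means with PGE2. Il2ra was at 671, 620 and 628 FPKM with PGE2 and 644, 670 and 758 with vehicle. Of the T cell markers, Cd5 alone had a lower mean with PGE2. Depth, which the coverage and FPKM columns give together, was 4.54 to 5.45 gigabases of fragments with PGE2 and 4.0 to 5.12 with vehicle (exact permutation p = 0.5, two-sided; 3 libraries against 3 cannot go below 0.1). With PGE2, summed markers were 3.55 to 4.33 FPKM for B cells, 0.162 to 0.476 for myeloid cells, 2.26 to 4.53 for NK cells, 1.51 to 2.87 for erythroid cells and 10.4 to 12.1 for stromal and endothelial cells. With vehicle they were 3.84 to 5.7, 0.235 to 0.934, 0.627 to 2.79, 1.44 to 1.75 and 9.15 to 10.7 FPKM in the same order. Nearly all of the stromal and endothelial sum is Pecam1 and of the NK sum Klrd1, and Ncr1, Klrb1c and Col3a1 were listed at 0 in every library. The CD8 markers Cd8a and Cd8b1 summed to 5.92 to 6.64 FPKM with PGE2 and 5.27 to 5.59 with vehicle, without overlap. The part of these marker sums in any change described here was not tested.

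The sequences before the starts of 3 of the genes are shown because CREB binds the cAMP response element (CRE) in the promoters of many cAMP-induced genes, while FOXO1, TCF-1, LEF-1 and the KLF factors have known recognition letters of their own. Igfbp4 is the sole gene of the 8 that passed the test described below, and Satb1 had the largest positive log2 change among the 8. Klf2 was the sole gene of the 8 with the CRE core letters TGACG in this window. Capitals mark TGACG or a KLF-type CACCC box read on either strand (CACCC or GGGTG). The sequences are from RefSeq on build GRCm38.p6, run 5′ to 3′ on the strand of the gene and end at the base before the start of the gene in the deposited tables.
Igfbp4, chr11:99040994-99041243, plus strand: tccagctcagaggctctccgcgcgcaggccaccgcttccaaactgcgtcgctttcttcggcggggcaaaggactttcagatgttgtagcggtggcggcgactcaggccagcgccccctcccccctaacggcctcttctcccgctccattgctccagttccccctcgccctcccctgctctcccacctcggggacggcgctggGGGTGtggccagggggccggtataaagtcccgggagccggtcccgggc
Satb1, chr17:51833291-51833540, minus strand: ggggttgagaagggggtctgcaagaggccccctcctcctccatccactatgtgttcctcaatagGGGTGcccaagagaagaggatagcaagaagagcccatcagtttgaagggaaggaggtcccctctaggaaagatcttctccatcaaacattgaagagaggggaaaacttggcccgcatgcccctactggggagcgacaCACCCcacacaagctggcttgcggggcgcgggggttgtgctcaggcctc
Klf2, chr8:72318812-72319032, plus strand: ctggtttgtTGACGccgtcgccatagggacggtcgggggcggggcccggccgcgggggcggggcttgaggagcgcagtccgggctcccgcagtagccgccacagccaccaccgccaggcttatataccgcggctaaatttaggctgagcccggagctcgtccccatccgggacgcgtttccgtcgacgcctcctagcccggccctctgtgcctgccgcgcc

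In the 250 bases before each RefSeq start, both strands were searched over 16 windows that belong to the 8 genes. The full CRE, TGACGTCA, was in 0 of the 16, and in 1.55% of 32817 windows of all genes. TGACG, which is also part of the full CRE, was in 1 of the 16, at bases -241 to -237 from the RefSeq start of Klf2, and in 17.7% of all windows. The forkhead letters GTAAACA (3.16% of all windows) and the TCF/LEF letters CTTTGAA (4.46%) and CTTTGAT (3.21%) were in 0 of the 16. CACCC was in 13 of the 16, which belong to 6 of the 8 genes, and in 52% of all windows. Lef1 and Satb1 have several windows each, and the Lef1 windows that start at 131110047 and 131110073 overlap and share their matches. The 16 are therefore not independent, and no enrichment was tested. The match of Klf2 to CACCC, at bases -19 to -15, lies past the end of the stretch printed above. A match is not a binding site, and the absence of letters from these windows says nothing of a factor's binding elsewhere in the gene.

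Testing was limited to the 12113 genes that averaged 1 FPKM or more. All 8 genes were among them, and each of the 8 was above 1 FPKM in every library. Igfbp4 fell with PGE2, 0 of the 8 rose, and the other 7 did not pass the test. Satb1 and Klf3 had values with PGE2 above every vehicle value, and Tcf7, like Igfbp4, had values below every vehicle value. In Lef1, Bach2, Foxo1 and Klf2 the groups overlapped. Over all tested genes, 0.57% rose and 0.239% fell at an adjusted p under 0.05, by limma on log2(FPKM + 1) with Benjamini-Hochberg adjustment over all of them. The groups did not overlap for 4 of the 8 genes and for 19.7% of all tested genes (PGE2 above in 7.81%, below in 11.9%). In read coverage scaled to depth, a second measure in the tables, 1 of the 8 again fell and 0 rose, where 0.388% of all tested genes fell and 0.925% rose (1.31% in all). By that measure 5 of the 8 did not overlap, 3 with PGE2 above and 2 below, where 8.11% of all tested genes were above and 12.7% below (20.9% in all). The median log2 change was 0.05 over the 8, with 4 higher and 4 lower, and -0.03 over all tested genes; the median of the 8 was -0.04 without PGE2 replicate 2, -0.01 without vehicle replicate 2, and 0.01 to 0.05 without any other single library. In these bulk samples fewer cells that carry a transcript and less of it per cell cannot be told apart.

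**Figure D1:**
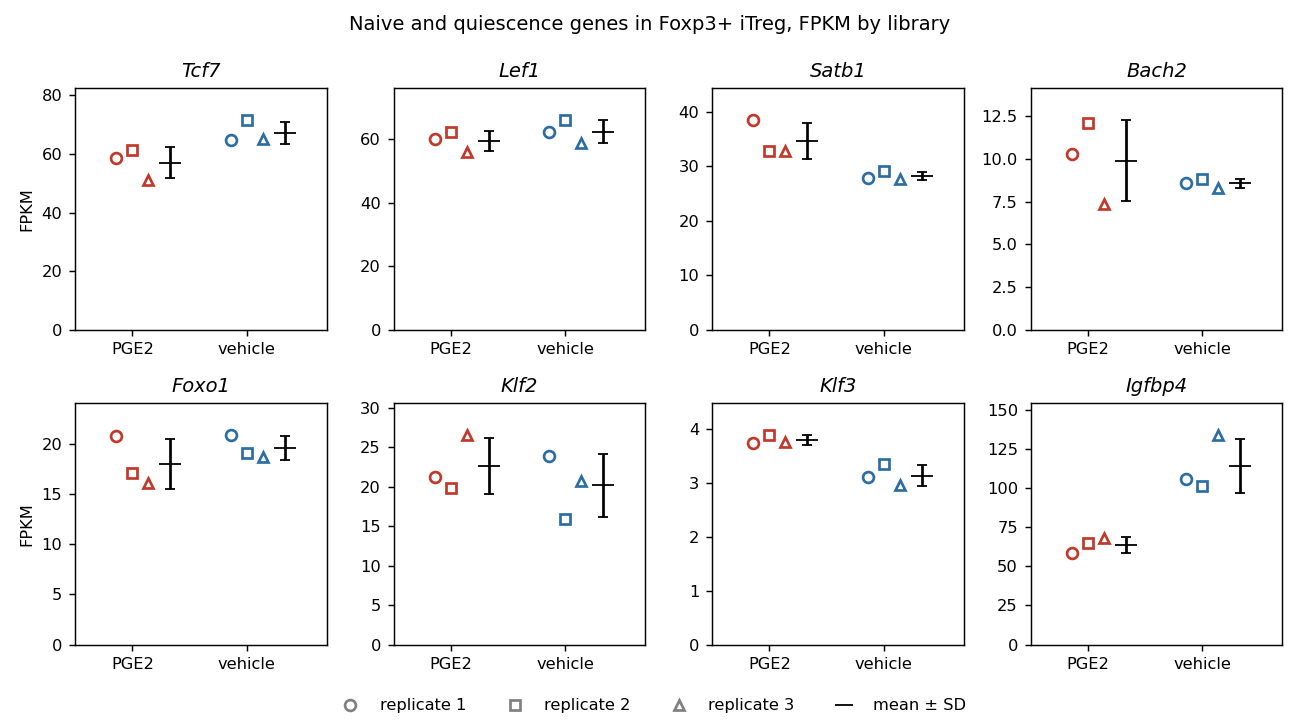
FPKM of each gene in the 3 PGE2 libraries (red, left) and the 3 vehicle libraries (blue, right), with symbols for the replicate number and black bars for mean ± SD. Igfbp4 averaged 63.6 FPKM with PGE2 and 114 with vehicle, and the other panels show smaller differences or overlapping groups.

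Igfbp4 encodes a secreted protein that binds insulin-like growth factors, and its transcript is a common marker of naive T cells in single-cell work. It lies on chromosome 11 from 99041244 to 99054392 on the plus strand of mm10 (ENSMUSG00000017493.12), a protein-coding gene; like the values of all genes here, its FPKM is for the whole gene and not for single exons. It stood at 58.2, 65 and 67.7 FPKM in PGE2 replicates 1, 2 and 3 and at 106, 101 and 134 FPKM in vehicle replicates 1, 2 and 3. The highest PGE2 library was thus well under the lowest vehicle library. The means were 63.6 ± 4.92 FPKM with PGE2 and 114 ± 17.5 FPKM with vehicle (SD, n = 3 each), and the log2 change was -0.82 (SE 0.12, 95% interval -1.11 to -0.53, adjusted p = 0.038 with limma).

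Igfbp4 also fell in read coverage, which was 133, 136 and 122 with PGE2 and 224, 208 and 209 with vehicle before scaling to depth. After that scaling the log2 change of coverage was -0.8 (SE 0.1, adjusted p = 0.024 with limma). For genes with 1 transcript scaled coverage and FPKM are nearly equal. Igfbp4, annotated with 6, had a scaled coverage of 24.4 and an FPKM of 58.2 in PGE2 replicate 1. Its coverage is thus not the mean depth that its FPKM implies, and serves as a check only. Across genes, deviations from the group means correlated between libraries of the same replicate number (r = 0.23, 0.31 and 0.53). PGE2 replicate 1 reached 0.27 with vehicle replicate 2, however, so only replicate 3 stood clearly apart. Within the numbers the differences of Igfbp4 in log2(FPKM + 1) were -0.86, -0.63 and -0.97. Of all tested genes, 33 had a more negative change, which is 0.272%. The call did not survive every removal of a library: without vehicle replicate 3, the highest value, the adjusted p was 0.049, and without any other single library it was 0.089 to 0.17. Leaving out PGE2 replicates 1, 2 and 3 in turn gave 0.14, 0.17 and 0.089, and leaving out vehicle replicates 1 and 2 gave 0.12 and 0.089, with log2 changes from -0.9 to -0.7 over all 6 removals. In 4 of the 6 libraries the assembled locus began upstream of the annotated start and of the window printed above, and the annotated entry held 88.8% to 97.8% of the FPKM of that locus.

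**Figure D2:**
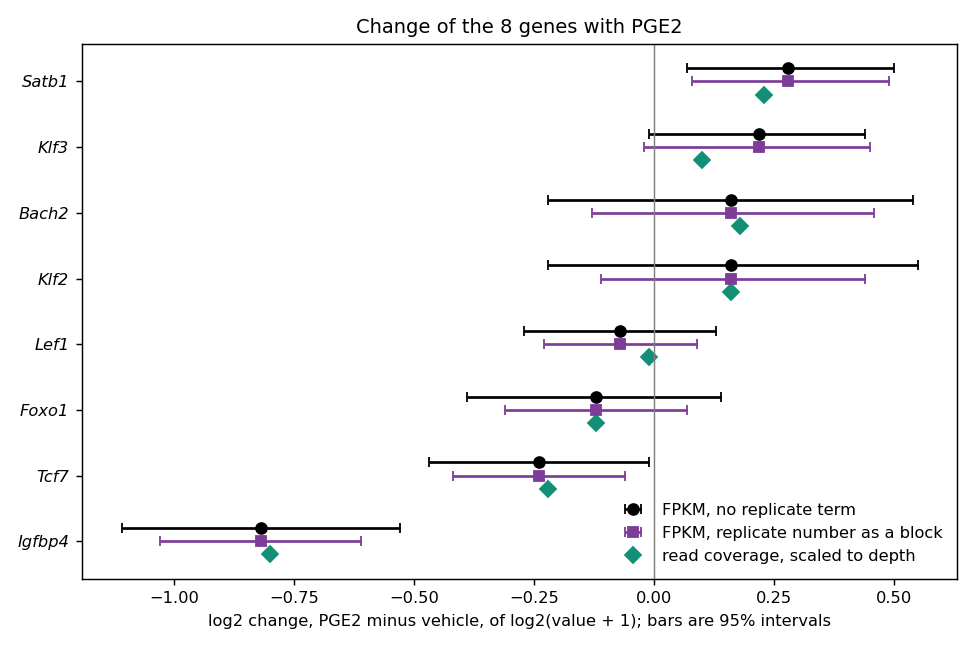
Log2 change of each gene (PGE2 minus vehicle, horizontal axis) with 95% intervals, not adjusted for multiple genes, from FPKM without a replicate term (black) and with the replicate number as a block (purple), and the change of scaled read coverage (green, no interval drawn). Igfbp4 lies at -0.82 and the other 7 genes between -0.24 and 0.28.

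Tcf7 (chromosome 11, 52252371 to 52283014, minus strand, ENSMUSG00000000782.15) was at 58.5, 61.4 and 51.1 FPKM in PGE2 replicates 1, 2 and 3 and at 64.7, 71.7 and 65.3 FPKM in the vehicle ones. All PGE2 values lay below all vehicle values, by a narrow margin between 61.4 and 64.7. The log2 change was -0.24 (SE 0.1, 95% interval -0.47 to -0.01), which did not pass the test (unadjusted p = 0.042, adjusted p = 0.36 with limma). An unadjusted p under 0.05 was met by 13% of all tested genes and by 3 of the 8, Satb1 above and Tcf7 and Igfbp4 below. The scaled coverage gave -0.22 (SE 0.08) and did not overlap either, and the differences within replicate numbers were -0.14, -0.22 and -0.35.

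Lef1, the other TCF/LEF factor of T cells (chromosome 3, 131110471 to 131224356, plus strand, ENSMUSG00000027985.14), was at 59.9, 62.3 and 56.1 FPKM with PGE2 and at 62.4, 66.1 and 58.7 FPKM with vehicle. The groups overlapped, and the log2 change of -0.07 (SE 0.09) had a 95% interval of -0.27 to 0.13, so that a loss of the size seen for Igfbp4 lies outside it. Within replicate numbers Lef1 was lower with PGE2 in 3 of 3, by 0.06 to 0.09 on the log2 scale of FPKM. Its scaled coverage was 5.09, 5.22 and 4.98 with PGE2 and 5.16, 5.25 and 4.95 with vehicle, with overlap and with replicate 3 higher with PGE2 (log2 change -0.01, SE 0.07, adjusted p = 0.98 with limma). The log2 change of FPKM was -0.11 to -0.03 without any single library. An antisense gene in Lef1, Gm43352, was at 6.34, 5.01 and 5.07 FPKM with PGE2 and at 5.22, 5.89 and 5.41 FPKM with vehicle, an order of magnitude under Lef1. The library kit keeps strand, but whether the tables were made with it is not given in the sources used here.

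Satb1, which encodes a chromatin organizer that conventional T cells express strongly and that FOXP3 is known to repress, was highest in PGE2 replicate 1. It lies on chromosome 17 from 51736187 to 51833290 on the minus strand (ENSMUSG00000023927.15). Satb1 was at 38.5, 32.7 and 32.7 FPKM in PGE2 replicates 1, 2 and 3 and at 27.8, 29.1 and 27.6 FPKM in vehicle replicates 1, 2 and 3. The groups did not overlap in FPKM or in scaled coverage, and Satb1 was higher in 3 of 3 replicate numbers. The log2 change of 0.28 (SE 0.09, 95% interval 0.07 to 0.5) nevertheless missed the threshold (adjusted p = 0.24 with limma), and it was 0.21 without PGE2 replicate 1. The assembled locus around Satb1 had 45.8, 40.1 and 35.7 FPKM with PGE2 and 34, 35.4 and 31 with vehicle, a narrow gap. Its log2 change was 0.26 (SE 0.11, adjusted p = 0.39 with limma). The annotated entry held 81.6% to 91.5% of that locus. Gm36931, an overlapping entry on the same strand, was at 2.11, 1.87 and 1.67 FPKM with PGE2 and 1.63, 1.62 and 1.52 with vehicle.

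Bach2 encodes a repressor that pairs with small Maf proteins and holds back effector genes in T cells. It is the longest of the 8 loci, on chromosome 4 from 32238804 to 32586108 on the plus strand (ENSMUSG00000040270.16). Its FPKM of 10.3, 12.1 and 7.33 in PGE2 replicates 1, 2 and 3 spread widely around the tight vehicle values of 8.57, 8.82 and 8.31. PGE2 replicate 3 was the lowest of all 6 libraries, and the log2 change of 0.16 (SE 0.16, adjusted p = 0.75 with limma) was 0.35 without it and 0.02 without PGE2 replicate 2.

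The measures did not give the same picture for Bach2. Its scaled coverage was 1.69, 1.44 and 1.36 with PGE2 and 1.13, 1.29 and 1.2 with vehicle, without overlap (log2 change 0.18, SE 0.07, adjusted p = 0.35 with limma). The assembled locus around Bach2 had 15.4, 12.7 and 11.5 FPKM with PGE2 and 10.8, 13 and 12.2 FPKM with vehicle, again with overlap, and the annotated entry held 64% to 95.4% of it. An intronic transcript on the same strand, Bach2it1, was at 2.2, 2.14 and 1.91 FPKM with PGE2 and at 1.62, 1.5 and 1.83 FPKM with vehicle. How fragments were shared between these entries is not given in the sources used here. The FPKM of Bach2 is therefore uncertain, and the same limit holds for Satb1.

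Foxo1 (chromosome 3, 52268336 to 52353221, plus strand, ENSMUSG00000044167.6) is annotated with 1 transcript, and its FPKM and coverage move together by construction. It was at 20.8, 17.1 and 16.1 FPKM in PGE2 replicates 1, 2 and 3 and at 20.9, 19.1 and 18.7 FPKM in vehicle replicates 1, 2 and 3. Replicate 1 of each group was the higher, and the groups overlapped only through it. The log2 change was -0.12 (SE 0.11, 95% interval -0.39 to 0.14, adjusted p = 0.73 with limma), and within replicate numbers it was -0.01, -0.15 and -0.21. Leaving out PGE2 replicates 1, 2 and 3 in turn gave -0.23, -0.09 and -0.05, and leaving out vehicle replicates 1, 2 and 3 gave -0.08, -0.14 and -0.15.

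Klf2, a Krüppel-like factor that keeps T cells quiescent and drives S1pr1, was the most variable of the genes between vehicle libraries relative to its level. It lies on chromosome 8 from 72319033 to 72321656 on the plus strand (ENSMUSG00000055148.7). It was at 21.2, 19.9 and 26.6 FPKM in PGE2 replicates 1, 2 and 3 and at 23.9, 15.9 and 20.7 FPKM in vehicle replicates 1, 2 and 3. The groups overlapped, and the log2 change of 0.16 (SE 0.17, 95% interval -0.22 to 0.55) ranged from 0.01 to 0.29 when a library was left out.

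Klf3, a repressor of the same family that binds CACCC boxes and recruits CtBP, was the lowest of the 8. It lies on chromosome 5 from 64803388 to 64832901 on the plus strand (ENSMUSG00000029178.14). It stood at 3.75, 3.9 and 3.76 FPKM with PGE2 and at 3.11, 3.35 and 2.96 FPKM with vehicle, 2 tight groups that did not overlap. The log2 change of 0.22 (SE 0.1, 95% interval -0.01 to 0.44) did not pass the test (adjusted p = 0.41 with limma). The gap was narrower in the assembled locus, at 3.98, 3.9 and 3.76 FPKM with PGE2 and 3.11, 3.66 and 3.66 with vehicle. There the log2 change was 0.13 (SE 0.09). The annotated entry held 91.5% and 80.8% of that locus in vehicle replicates 2 and 3. The unscaled coverage of Klf3 was 4.9 to 6.96 over the 6 libraries. Its scaled coverage was 1.28, 1.33 and 1.26 with PGE2 and 0.99, 1.21 and 1.23 with vehicle. The change of its scaled coverage was 0.1 (SE 0.07), on a scale where the added 1 weighs more at such levels.

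**Figure D3:**
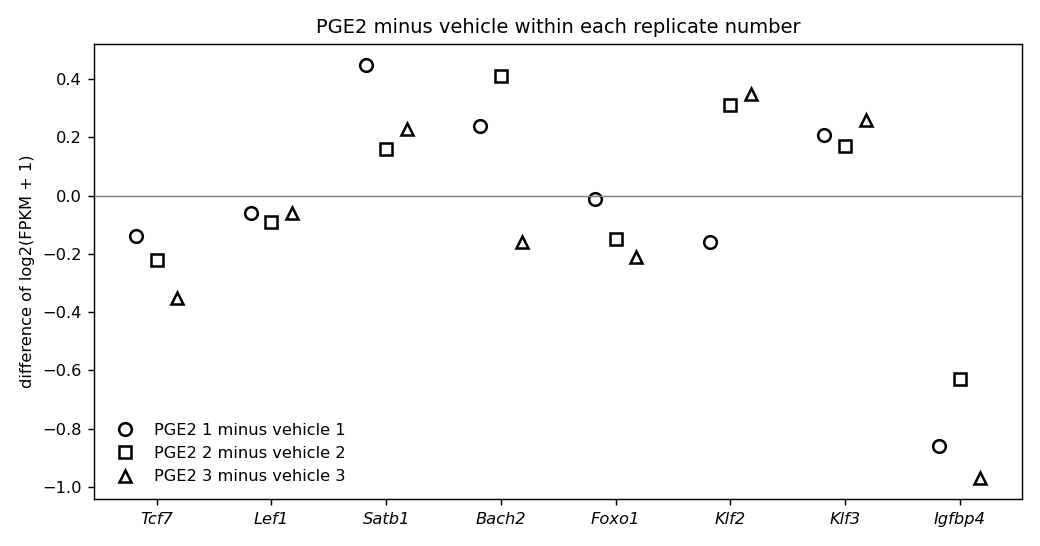
Difference in log2(FPKM + 1) between the PGE2 and the vehicle library of the same replicate number, by gene (symbols for the number). Tcf7, Lef1, Foxo1 and Igfbp4 are below 0 in all 3 numbers, Satb1 and Klf3 above 0 in all 3, and Bach2 and Klf2 on both sides.

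The order of levels, which FPKM allows to be compared between genes because it is per length, differed at the top between the groups. With PGE2, Igfbp4, Lef1 and Tcf7 averaged 63.6, 59.4 and 57 FPKM, and the ranges of neighbours in this order overlapped. With vehicle, Igfbp4 was alone at the top at 114 FPKM, above every value of Tcf7 (67.2 FPKM on average) and Lef1 (62.4), whose ranges overlapped. Below these the order was the same. With PGE2, Satb1 averaged 34.6, Klf2 22.6, Foxo1 18, Bach2 9.9 and Klf3 3.8 FPKM. With vehicle, Satb1 averaged 28.2, Klf2 20.2, Foxo1 19.6, Bach2 8.57 and Klf3 3.14 FPKM. Klf2 and Foxo1 overlapped in both groups, and the other neighbours did not. Among all tested genes the 8 spanned the 21.6th percentile of mean level (Klf3) to the 93.6th (Igfbp4).

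**Figure D4:**
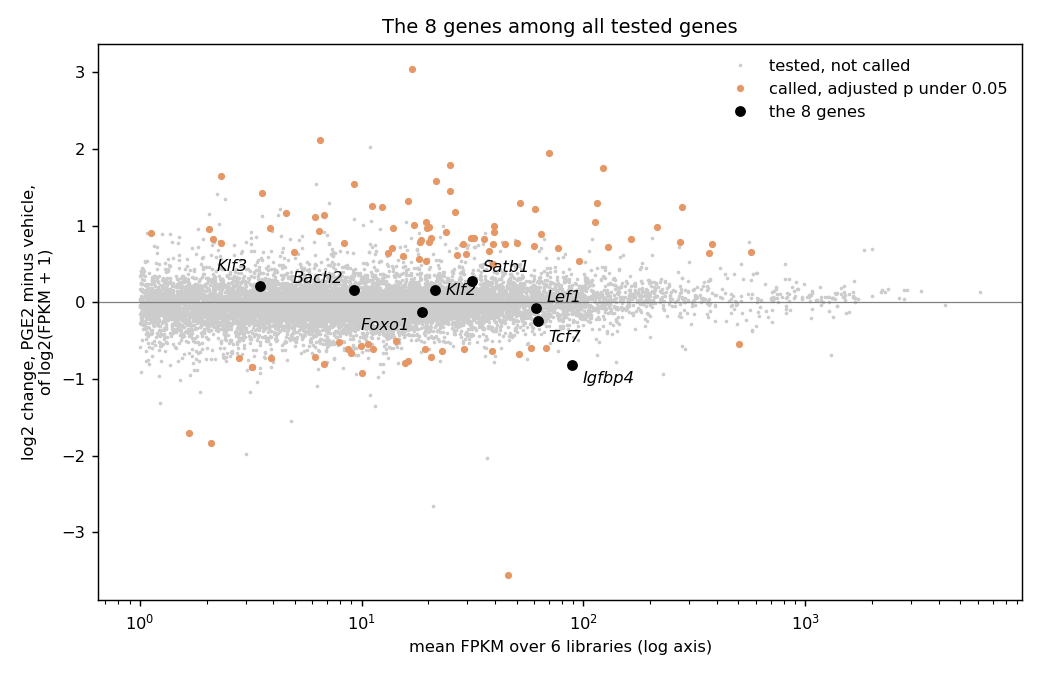
Log2 change (PGE2 minus vehicle, vertical axis) against mean FPKM over the 6 libraries (log axis) for all 12113 tested genes, with called genes in orange and the 8 genes in black. Igfbp4 lies among the called genes at the lower edge of genes of its level, and the other 7 lie within the grey cloud.

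The genes whose pattern over the 6 libraries was most like that of 6 of the 8 are given as a description, with Pearson's r on log2(FPKM + 1) over 6 libraries that share the 2 groups and the replicate numbers. The 10047 tested protein-coding genes, with the 8 themselves left out, were searched over few libraries, so no p is given. The closest were Clcn4 for Tcf7 (r = 0.995), Supt6 for Foxo1 (0.979), Med27 for Klf2 (0.99), Necap1 for Klf3 (0.999), Il18rap for Satb1 (0.993) and D17Wsu92e for Bach2 (0.987). Each of these nearest genes had an adjusted p above the threshold between groups. Il18rap, for instance, was at 3.55, 2.46 and 2.52 FPKM with PGE2 and at 1.76, 1.78 and 1.55 FPKM with vehicle, without overlap, a log2 change of 0.5 (adjusted p = 0.18 with limma).

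The mean of the 8 standardized patterns was 0.28, 0.18 and -0.49 SD in PGE2 replicates 1, 2 and 3. In vehicle replicates 1, 2 and 3 it was 0.14, 0.11 and -0.21 SD, so it was lowest in replicate 3 of both groups. With 4 of the 8 higher and 4 lower with PGE2, differences between the groups cancel in this mean. It therefore cannot show how strongly the groups differ beside the replicate numbers. The 5 genes closest to it were Plekhm2 (r = 0.997), Fam53a (0.992), Jarid2 (0.992), Cep250 (0.989) and Ube3b (0.989), with log2 changes of -0.06 to 0.01.

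Around these genes, 7 related lists were read in the same fit, and 2 of their 102 distinct tested genes were called, Il7r and Sgk1. With the replicate number as a block 8 were called, 6 higher and 2 lower. Over all tested genes the block called 3.26%, with 1.77% higher and 1.49% lower, and the fit without it 0.809%. In the fit without it, an unadjusted p under 0.05 was met by 13% of all 12113 tested genes, 661 higher and 919 lower. The 6 added by the block, Tob2, Tle1, Irf4, Icos, Tnfrsf18 and Slc7a5, are named here after their values were seen, other than Tnfrsf18.

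Naive and lymph node homing genes included the first of the 2. Of 9 tested genes 1 rose and 0 fell. Il7r, the receptor chain for the survival cytokine IL-7 and a known FOXO1 target, was at 24, 23.9 and 22.3 FPKM with PGE2 and at 15.5, 16 and 15.7 FPKM with vehicle (log2 change 0.54, SE 0.08, adjusted p = 0.031 with limma). The groups were far apart relative to their spread, yet the adjusted p was 0.067 to 0.18 without any single library. Leaving out PGE2 replicates 1, 2 and 3 in turn gave 0.13, 0.18 and 0.069, and leaving out vehicle replicates 1, 2 and 3 gave 0.13, 0.16 and 0.067.

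Ccr7 and S1pr1, homing receptors that FOXO1 and KLF2 are known to control, and Il6ra did not pass the test and are named after their values were seen. Ccr7, the receptor for lymph node chemokines, was at 157, 161 and 181 FPKM with PGE2 and at 135, 114 and 122 FPKM with vehicle (log2 change 0.43, SE 0.1, adjusted p = 0.12 with limma), without overlap. S1pr1, the receptor for exit into lymph, was at 31, 26.6 and 33.1 FPKM with PGE2 and at 25.7, 24 and 26.4 with vehicle (0.24, SE 0.1). In the other direction, Il6ra, the IL-6 receptor chain, was at 5.05, 4.8 and 4.25 FPKM with PGE2 and at 7.38, 5.83 and 8.03 with vehicle (-0.5, SE 0.13, adjusted p = 0.15 with limma). Over the 9 genes the median log2 change was 0.21, and it was 0.1 without PGE2 replicate 2. Igfbp4, a marker of the same naive state, thus had the opposite sign to Il7r.

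**Figure D5:**
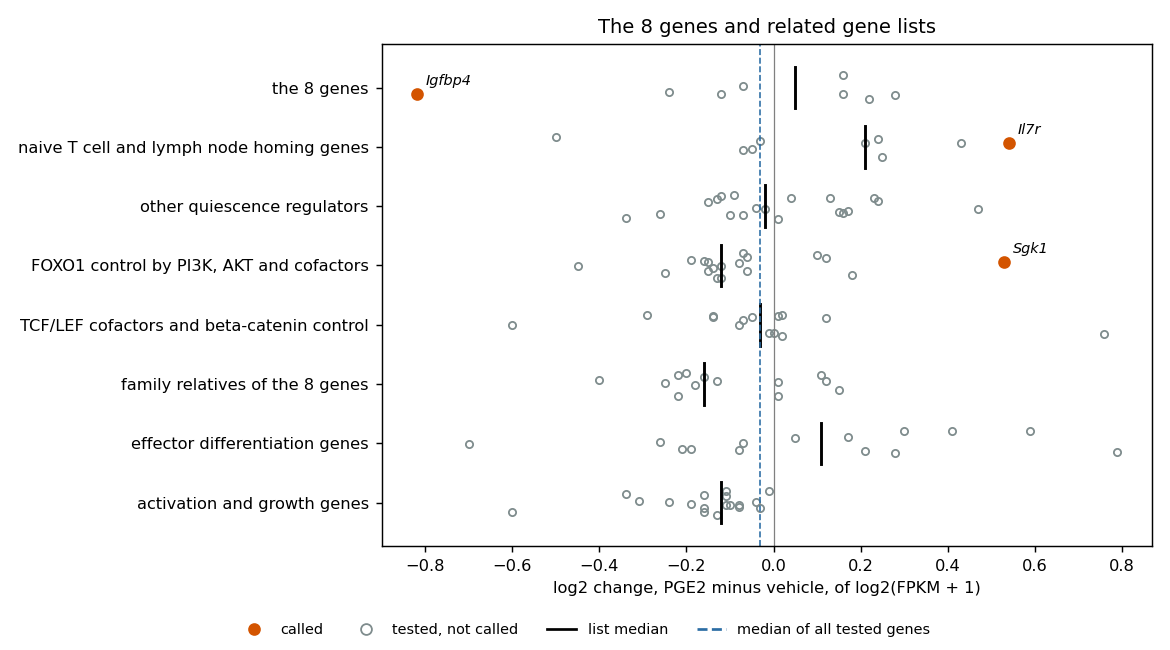
Log2 change (PGE2 minus vehicle) of the 8 genes and of the tested genes of 7 related lists, with called genes in orange, list medians as black bars and the median of all tested genes as a dashed line. Igfbp4 at -0.82, Il7r at 0.54 and Sgk1 at 0.53 are the called genes.

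Of 18 genes that control FOXO1 through PI3K, AKT and cofactors, 1 rose and 0 fell. Sgk1, a kinase related to AKT that also phosphorylates FOXO factors, was at 122, 111 and 106 FPKM with PGE2 and at 78.8, 74.1 and 79.9 FPKM with vehicle (log2 change 0.53, SE 0.09, adjusted p = 0.049 with limma). The groups did not overlap, and 14 of the 18 had a lower mean with PGE2, with a list median of -0.12 that was -0.03 without PGE2 replicate 3. For Sgk1 the adjusted p was 0.15, 0.21 and 0.085 with PGE2 replicates 1, 2 and 3 left out in turn, and 0.16, 0.22 and 0.077 with vehicle replicates 1, 2 and 3 left out. The call was also lost with no filter on the level (adjusted p = 0.098 with limma) and without the variance trend (0.065). Without replicate 3 of both groups the adjusted p of Sgk1 was 0.052.

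Other quiescence regulators, among them Foxp1, Btg1, Tsc1 and Cdkn1b, were split in direction. Limma called 0 of 19 tested genes; an unadjusted p under 0.05 was met by 2 with a higher and 1 with a lower mean, and 1 rose with the block. Tob2, an antiproliferative protein of the BTG/TOB family, was at 62.5, 62.9 and 54.5 FPKM with PGE2 and at 40.6, 43.2 and 45.1 with vehicle (0.47, SE 0.09; adjusted p = 0.073 with limma, 0.048 with the block). Ets1, the most abundant, averaged 159 ± 5.26 FPKM with PGE2 and 161 ± 15.3 FPKM with vehicle (SD, n = 3 each). The list median was -0.02, with 9 genes higher and 10 lower. It was 0.01 with median-of-ratios scaling, -0.1, 0.01 and 0.04 with PGE2 replicates 1, 2 and 3 left out in turn, and -0.04 to -0.01 without a vehicle library.

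Of 14 tested cofactors of TCF-1 and LEF-1 and regulators of β-catenin, limma called 0, and an unadjusted p under 0.05 was met by 1. That gene, Tle1, a corepressor of the TLE family, was at 9.09, 11.1 and 7.64 FPKM with PGE2 and at 5.63, 4.76 and 4.66 FPKM with vehicle. Its groups did not overlap, and its log2 change of 0.76 (SE 0.14) had an adjusted p of 0.067 with limma and of 0.03 with the block. Aes, a shorter relative that the list also names as Tle5 and the most abundant of the list, averaged 296 ± 10.6 FPKM with PGE2 and 295 ± 34.3 FPKM with vehicle. The list median was -0.03, as over all tested genes. It was -0.06, -0.09 and 0.03 with PGE2 replicates 1, 2 and 3 left out in turn, and -0.04, 0.01 and -0.04 with vehicle replicates 1, 2 and 3 left out.

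Many family relatives of the 8 were at trace levels. Of 28 relatives 13 were tested and limma called 0 of them, with 1, of lower mean, at an unadjusted p under 0.05. Tcf7l2, Foxo6 and Igfbp1, Igfbp2, Igfbp3, Igfbp5 and Igfbp6 were all under 0.1 FPKM on average in both groups, and Igfbp7, at 3.62 ± 0.402 FPKM with PGE2 and 3.58 ± 0.454 FPKM with vehicle (SD, n = 3 each), was the sole IGF-binding protein gene of the list to be tested. Klf6, the highest, was at 49, 37.6 and 31.3 FPKM with PGE2 and at 40.5, 38 and 28.9 FPKM with vehicle, with overlap (log2 change 0.12, SE 0.19). The list median of -0.16 depended on single libraries, at -0.24 without PGE2 replicate 1, 0.02 without its replicate 3 and -0.01 without vehicle replicate 1, and it was 0.06 over the 6 genes averaging 5 FPKM or more.

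Effector differentiation genes, several of which BACH2 restrains, differed in both directions without a call. Tnfrsf18 of this list is also among the Treg markers above, so the list is not specific to effector cells. Limma called 0 of 14 tested genes. An unadjusted p under 0.05 was met by 2 with a higher and 1 with a lower mean, and the block called the same number each way. Tnfrsf18, the costimulatory receptor GITR, was at 678, 688 and 756 FPKM with PGE2 and at 493, 378 and 365 with vehicle (0.79, SE 0.14; adjusted p = 0.056 with limma, 0.033 with the block). Icos, a CD28 relative, had a log2 change of 0.59 (SE 0.11; adjusted p = 0.07 with limma, 0.014 with the block). Irf4, a factor of activated and effector T cells, was at 35.6, 27.4 and 27.3 FPKM with PGE2 and at 56.1, 47.4 and 44.9 with vehicle (-0.7, SE 0.13; adjusted p = 0.072 with limma, 0.0089 with the block). Prdm1, a known target that BACH2 represses and also named after its values were seen, overlapped at 2 ± 1 FPKM with PGE2 and 2.47 ± 1.14 FPKM with vehicle (SD, n = 3 each). The list median of 0.11 was 0.03, -0.04 and 0.21 with PGE2 replicates 1, 2 and 3 left out in turn, and 0.18, 0.17 and -0.02 with vehicle replicates 1, 2 and 3 left out.

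Activation and growth genes, a programme that quiescence factors are known to oppose, had lower means with PGE2 in 18 of 18 tested genes, against 6863 of all 12113. The shifts were small, with a median log2 change of -0.12 and a range of -0.6 to -0.01, and 17 of 18 were lower under median-of-ratios or upper quartile scaling. Without any single library, 16 to 18 of the 18 were lower. Limma called 0, an unadjusted p under 0.05 was met by 3, all of lower mean, and the block called 1, which fell. Of all 12113 tested genes, 919 met an unadjusted p under 0.05 with a lower mean, and the block called 1.49% lower. Genes of 1 programme, such as the Mcm genes here, can vary together. The 18 are therefore not independent, and no set test was run. Slc7a5, an amino acid transporter of growing T cells, was at 36.4, 37.2 and 27.4 FPKM with PGE2 and at 53.8, 57.5 and 43.1 FPKM with vehicle (-0.6, SE 0.15; adjusted p = 0.15 with limma, 0.013 with the block). Il2ra, the most abundant and also among the Treg markers above, averaged 640 ± 27.6 FPKM with PGE2 and 691 ± 59.6 FPKM with vehicle. It did not pass the test.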

How the data were processed

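The 6 libraries of sorted Foxp3+ iTreg, 3 with PGE2 and 3 with vehicle, were grouped by their titles. Per the labels' protocols, RNA came from a QIAGEN micro kit and went into Illumina libraries that keep strand. Trim Galore, HISAT2 and mm10 are named in the submitters' processing notes; no version, and no program for the gene tables, is given in the sources used here. Per the file headers each table gives coverage, FPKM and TPM. FPKM as deposited is normalized to length and library size, and the deposited coverage is a signal without scaling. The deposited TPM was treated as a score and not used, because loci are listed both as assembled and as annotated genes and the column sums to 1.91 to 1.94 times the assembled loci alone.

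Annotated entries were used, and IDs listed more than once were summed. Of 47643 IDs, 47224 are in GENCODE M21 without regard to version. Coverage divided by FPKM was within 1% of a library constant for 97.3% to 97.7% of genes with 1 transcript, and this constant gave depth and scaled coverage. For the members with more transcripts, all but Foxo1 and Klf2, the ratio departs from this constant. How their coverage was formed is not given in the sources used here, so it is a check and not a mean depth over the gene. Read counts were not used here, so no counting interval was computed.

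PGE2 was compared with vehicle by limma 3.58.1 in R 4.3.3, with a variance trend, on log2(FPKM + 1), two-sided, with Benjamini-Hochberg adjustment and a threshold of 0.05. Tested were the 12113 genes averaging 1 FPKM or more over the 6 libraries. A fold change on this scale understates that of low genes. The code was tested on simulated data. Plots used matplotlib 3.10.9 (Python 3.11.15).

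Whether the replicate numbers in the titles pair the libraries was checked by correlating deviations from the group means across genes. Same-numbered libraries gave 0.23, 0.31 and 0.53, and other pairs -0.43 to 0.27. All 3 exceed 0.1, so the fit with the number as a block is given where it changes a call. The labels do not say what a number shares.

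The members, lists and tests were chosen with earlier results of these data known. Genes named are the 8 members, Foxp3, Il2ra and Cd4, up to 4 called genes of each list by smallest p or else its most abundant gene, the nearest patterns (a few results under this rule are not reported here), paralogs, overlapping genes, markers, and genes given as named after their values were seen (Prdm1 among them). Alternatives were another pseudocount, 2 other filters, coverage, assembled loci, 2 scalings, protein-coding genes alone, 2 variance models, the block and leaving out libraries.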

Additional observations from a re-analysis of the deposited data

How the results depend on the processing

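The number of called genes, 98, moved by over 1.5 times with no filter on the level (45), scaled coverage (159), protein-coding genes alone (174) and the replicate block (395). It was 22 to 69 without any single library and 138 without replicate 3 of both groups, an alternative added after seeing the data. Of the 8 genes, 0 were called with no filter or without the variance trend, where Igfbp4 kept a log2 change of -0.82 at adjusted p of 0.15 and 0.052, and 0 or 1 without a single library, with -0.9 to -0.7 for Igfbp4. The other 7 genes kept their sign and stayed uncalled under each alternative in which they were tested, the block included; Klf3 was not tested with the filter at 5 FPKM. Called genes among the related lists numbered 2, against 1 with no filter, with assembled loci or without the trend, 7 with protein-coding genes alone, 8 with the block, 0 to 1 without a single library and 4 without replicate 3 of both groups. With assembled loci Sgk1 was at 0.25 (SE 2.29), because a neighbouring locus had the larger overlap in 4 libraries. Signs turned for genes near 0: Ets1 was 0.01 with median-of-ratios scaling, and without single libraries it was -0.09 to 0.04, Aes -0.07 to 0.1 and Klf6 -0.05 to 0.27. Without replicate 3 of both groups Ets1 was 0.07 and Aes -0.06. The cause of other moves was not tested. Read counts were not used here, so what depth limits was not computed.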
